A study of Mus musculus with 6 samples.

Results

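The genes described here are 8 reported targets of the let-7 microRNAs: Arid3a, Arid3b, Nr6a1, Nras, Hras, Hic2, Plagl2 and Onecut2. They were taken by symbol, as the probe sets whose only annotated gene symbol is a gene of that list. That rule used no measured value, but the list was drawn up with earlier results of these data known. Of the 8, 7 were measured, each by 1 probe set, among 19937 genes in all. Hras had no probe set of its own and has no value here. Whether the array probes see every isoform of these genes was not tested.

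RNA came from mouse embryonic stem cells, pluripotent cells derived from the early embryo and grown in culture, on 3 control arrays and 3 Trim71 knockdown arrays. The knockdown cells were labelled Trim71 KD and, per the labels' protocols, had been transfected with a mixture of 3 siRNAs against Trim71 and harvested after 72 h. The control cells were labelled wild-type, while the protocol speaks of a non-targeting siRNA, so it is not known from the labels whether they were transfected. The labels name no strain or cell line and do not say whether replicates were separate cultures, so p-values measure the spread between these arrays, which may be technical.

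The let-7 family is a group of microRNAs that accumulate as embryonic cells differentiate. They pair through a short seed with matching sites, usually in the 3′ untranslated regions of messenger RNAs, and lower their stability and translation. In embryonic stem cells the LIN28 proteins hold mature let-7 low. Trim71, also known as Lin41, is itself a classical let-7 target, and its protein binds RNA and has been linked to the silencing of messages. The genes described here encode DNA-binding regulators of development and small GTPases of growth signalling, and their transcripts have been reported as let-7 targets in mouse or human cells.

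The mature let-7 sequences are shown because the seed is the part of a let-7 microRNA that pairs with its targets. They are RefSeq sequences on GRCm38.p6, written 5′ to 3′, with bases 2 to 8, the seed, in capitals.
mmu-let-7a-5p: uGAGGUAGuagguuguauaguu
mmu-let-7d-5p: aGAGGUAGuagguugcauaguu
mmu-let-7e-5p: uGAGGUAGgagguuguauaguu
mmu-let-7g-5p: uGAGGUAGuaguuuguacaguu
mmu-miR-98-5p: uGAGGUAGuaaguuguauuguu
mmu-let-7j: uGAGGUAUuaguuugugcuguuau
Of 11 mature let-7 and miR-98 sequences compared, 10 share the seed GAGGUAG. Among those shown here, let-7d differs from let-7a at its first base and after the seed. The sequences of let-7e, let-7g and miR-98 differ from let-7a after the seed. The remaining one, let-7j, has GAGGUAU. A site that pairs with the shared seed reads CUACCUC. Sites in the transcripts of the 8 genes were not analysed here.

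The labels and the arrays were checked first. Trim71 read 10.48, 10.50 and 10.51 on the control arrays and 9.001, 8.95 and 8.98 on the knockdown arrays on the log2 scale, so 34.9% of its signal remained. All 10 stem cell markers examined, among them Pou5f1 and Nanog, had control means of at least 9.56. Of these 10, 9 log2 fold changes were positive and 3 genes were called, Klf4 higher at 0.36 (limma adjusted p = 0.0141), Zfp42 higher at 0.25 (adjusted p = 0.0232) and Lin28a lower at −0.26, each in at most 2 of the 6 fits with an array left out. Averaged over the 10, the control arrays lay between 11.33 and 11.37 and the knockdown arrays between 11.42 and 11.48. Of 10 fibroblast markers, examined because feeder cells could be present, 9 were not called and Acta2, a smooth muscle actin, was lower, at a log2 fold change of −0.70. Acta2 (limma adjusted p = 0.00597) was called in 6 of 6 fits with an array left out. Its control mean was 9.15, and those of the other 9 ran from 3.34 to 7.07. Averaged over those 10 markers, the control arrays lay between 5.97 and 6.09 and the knockdown arrays between 5.87 and 6.03. Of 7 neural markers Pax6 was lower at −0.76, called in 6 of 6 fits with an array left out, and Nes higher at 0.27 (adjusted p = 0.0497), called in 0 of 6. Of 8 endoderm markers 0 were called in limma and 0 had an unadjusted p under 0.05. Among all genes 5.53% were called in either direction, and 19.0% had an unadjusted p under 0.05. The part of these markers in the results below was not tested. Knockdown array 3 stood apart, with an upper quartile of 8.42 against 8.32 to 8.35 on the other 5 arrays.

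The comparison asked how each gene differed between control and knockdown cells. Arid3a, a DNA-binding regulator of immunoglobulin genes and of the trophectoderm, rose 1.31-fold. Nr6a1, the germ cell nuclear factor that represses Pou5f1 as stem cells differentiate, fell to 79.1% of its control level. The other 5 genes, Arid3b, Nras, Hic2, Plagl2 and Onecut2, did not pass the test. A gene was called when the limma p-value, adjusted over all 19937 genes by the Benjamini-Hochberg method, was under 0.05. By that rule 1 of 7 genes was called higher and 1 lower, where 3.39% of all genes were called higher and 2.15% lower. With 7 genes, these counts are too few to read against that background. The background split depends on scaling and on single arrays. It was 675 higher and 428 lower as reported, 779 and 763 when quantile normalization was applied again, 527 and 616 when each array was centred on its median, 603 and 699 without knockdown array 3, and 1114 and 1058 with array weights.

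Arid3a encodes a protein with an AT-rich interaction domain. Its control arrays read 7.67, 7.68 and 7.64 and its knockdown arrays 8.05, 7.998 and 8.10 on the log2 scale. Every knockdown array was above every control array, and the gap of 0.31 between the groups was wider than the range within either, 0.05 in controls and 0.11 after knockdown. The group means were 7.66 ± 0.024 (SD, n = 3) and 8.05 ± 0.053 (SD, n = 3). The difference was 0.39 ± 0.049 SE on the log2 scale (limma adjusted p = 0.00748), a ratio of 1.31 with a 95% interval of 1.21 to 1.42. An exact permutation test, two-sided, gave p = 0.1, and 3 against 3 arrays cannot give less. Its change was larger in size than that of 97.8% of all genes. The call held with each array left out in turn, with adjusted p-values from 0.0129 to 0.046. It was lost when the replicate number was added to the model as a block (limma adjusted p = 0.0533).

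Arid3b is the close paralog of Arid3a, with a role in heart and craniofacial development. It read 8.75, 8.88 and 8.80 on the control arrays and 8.78, 8.65 and 8.77 on the knockdown arrays. The groups overlapped, because 2 knockdown arrays lay within the range of the controls. The log2 fold change was −0.08 ± 0.059 SE (limma adjusted p = 0.561), and its 95% interval on the log2 scale ran from −0.22 to 0.06. A rise of the size seen for Arid3a lies outside that interval. The difference between the paralogs was measured within each array as the log2 level of Arid3a minus that of Arid3b. It lay between −1.19 and −1.08 on the control arrays and between −0.73 and −0.65 on the knockdown arrays. That ratio moved by 0.47 on the log2 scale, with no overlap between groups (exact two-sided permutation p = 0.1, again the smallest possible).

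**Figure D1:**
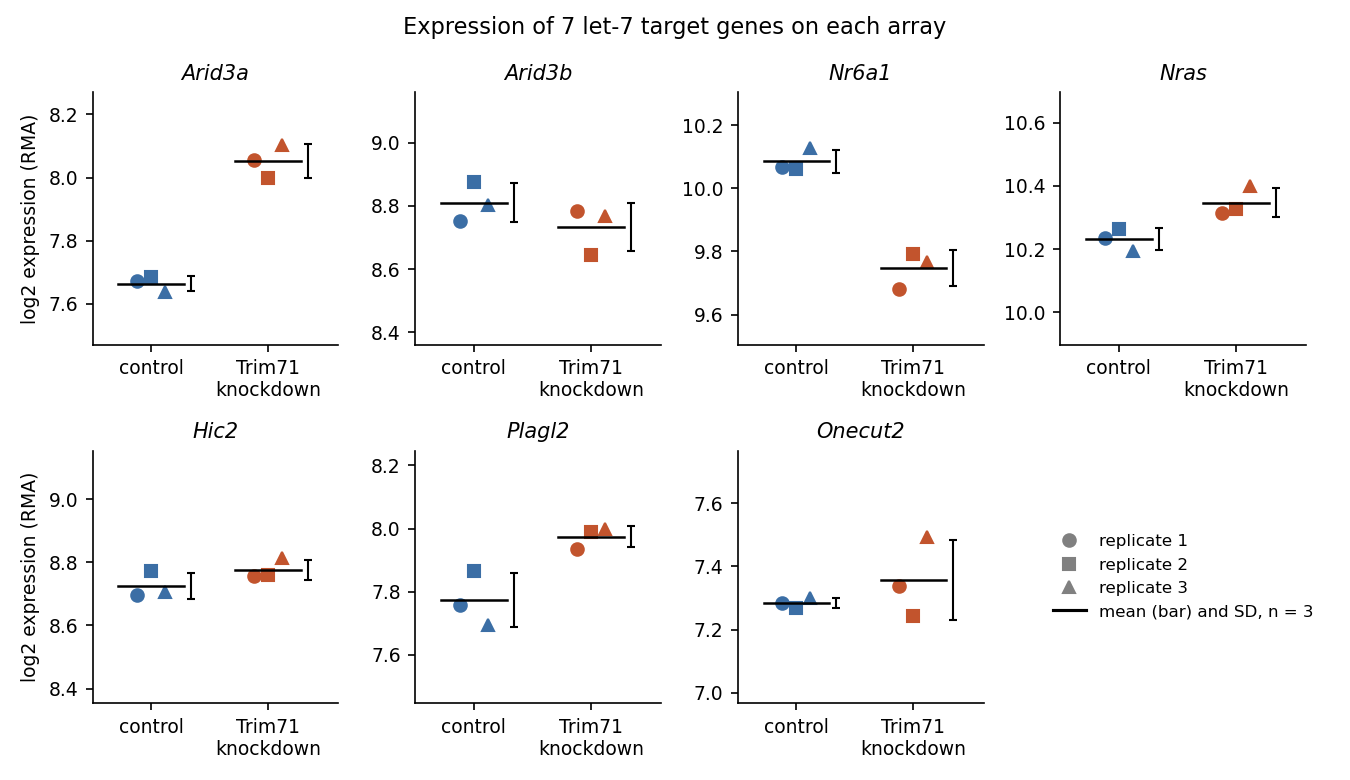
Each panel plots the log2 expression of 1 gene (RMA, vertical axis, every panel spanning the same number of log2 units) on the 3 control arrays (blue) and the 3 Trim71 knockdown arrays (orange), with symbols for the replicates, a bar for the mean and a whisker for the SD (n = 3). The groups are widely separated for Arid3a, which is higher after knockdown, and for Nr6a1, which is lower, narrowly separated for Nras and Plagl2, and overlapping for Arid3b, Hic2 and Onecut2.

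Nr6a1 is an orphan nuclear receptor, a transcription factor with no established ligand. Its control arrays read 10.07, 10.06 and 10.13 and its knockdown arrays 9.68, 9.79 and 9.77. Every knockdown array was below every control array, by a gap of 0.27 against ranges of 0.07 and 0.11 within the groups. The means were 10.09 ± 0.036 (SD, n = 3) in control cells and 9.75 ± 0.057 (SD, n = 3) after knockdown. The difference was −0.34 ± 0.051 SE on the log2 scale (limma adjusted p = 0.0131), a ratio of 0.791 with a 95% interval of 0.728 to 0.859. The exact two-sided permutation test gave p = 0.1. The size of the change exceeded that of 96.8% of all genes. The call did not hold in every smaller fit. Without control array 1, 2 or 3 the limma adjusted p was 0.068, 0.0604 and 0.0609, and with all probe sets of the array tested together it was 0.0513. With the replicate number added to the model as a block it was 0.0672.

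Nras encodes a small GTPase that passes growth factor signals to the ERK kinases. It read 10.24, 10.26 and 10.19 in control cells and 10.31, 10.33 and 10.40 after knockdown. All 3 knockdown values lay above the controls, but the gap was only 0.05. The log2 fold change was 0.12 ± 0.049 SE (unadjusted p = 0.0484, adjusted p = 0.258 in limma), and the gene was not called. The 95% interval of the ratio was 1.001 to 1.17.

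Plagl2, a zinc finger activator of the PLAG family, showed the same arrangement with a larger difference. Its control arrays read 7.76, 7.87 and 7.70 and its knockdown arrays 7.94, 7.99 and 7.998. The groups did not overlap, and the gap of 0.07 was smaller than the control range of 0.17. The log2 fold change was 0.20 ± 0.058 SE (unadjusted p = 0.00893, adjusted p = 0.101 in limma), a ratio of 1.15 with a 95% interval of 1.05 to 1.26. It was not called over all genes, but was called when only genes at or above the median level were tested (limma adjusted p = 0.0296). That fit called more genes in general, 1124 higher and 766 lower of 9969, against 675 and 428 of 19937 as reported.

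Hic2, a zinc finger repressor related to the tumour suppressor Hic1, read 8.70, 8.77 and 8.70 on the control arrays and 8.76, 8.76 and 8.81 on the knockdown arrays. The groups overlapped through control array 2. Its log2 fold change was 0.05 ± 0.048 SE (limma adjusted p = 0.65), with a 95% interval of the ratio from 0.959 to 1.12.

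Onecut2, a cut-homeodomain factor of liver, pancreas and neurons, read 7.28, 7.27 and 7.30 in control cells and 7.34, 7.24 and 7.49 after knockdown. Knockdown array 2 lay below all 3 controls and arrays 1 and 3 above them. The log2 fold change was 0.07 ± 0.068 SE (limma adjusted p = 0.65), with a 95% interval of the ratio from 0.942 to 1.17. It was 0.0061 without knockdown array 3, the array that stood apart.

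Set side by side, 5 of the 7 log2 fold changes were positive and 2 negative, with a median of 0.07 against 0.0048 for all genes. The median size of the change, sign aside, was 0.12 for the 7 genes and 0.07 for all genes. The groups did not overlap for 3 genes that were higher, Arid3a, Nras and Plagl2, and for 1 that was lower, Nr6a1. Across all genes, 14.7% were higher without overlap and 10.8% lower without overlap. At an unadjusted p under 0.05 in limma stood 4 of the 7, and 19.0% of all genes. The 7 genes were chosen with earlier results of these data known, which limits how these shares can be read.

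**Figure D2:**
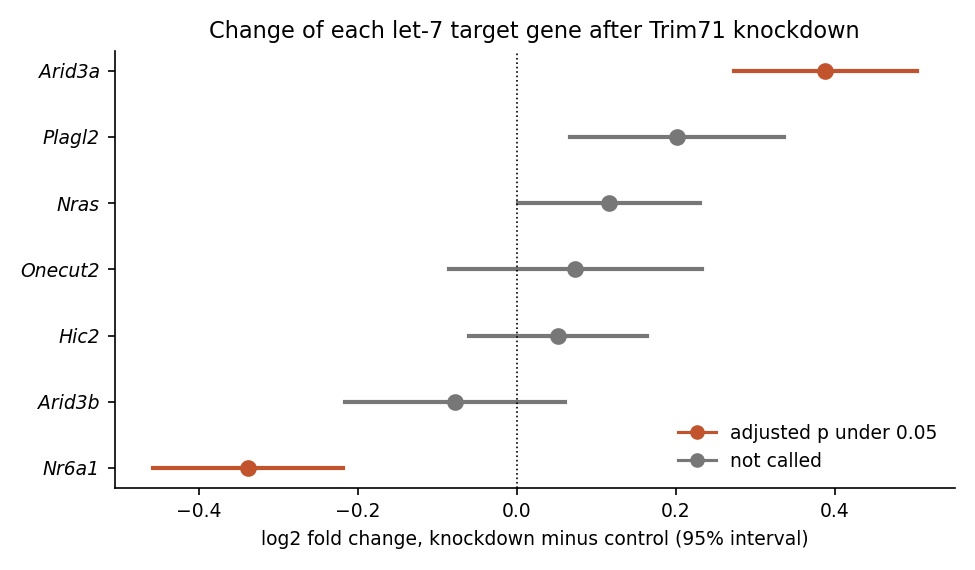
Points give the log2 fold change of each of the 7 genes (horizontal axis, knockdown minus control) and lines its 95% interval from the limma fit. Arid3a at 0.39 and Nr6a1 at −0.34 were called (orange), and the intervals of Arid3b, Hic2 and Onecut2 include 0 while those of Plagl2 and Nras lie just above it without a call (grey).

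The same fit was read for other let-7 targets, taken from reviews and from knowledge of conserved sites. That list was chosen with earlier results of these data known. Of 36 genes listed, 31 had a value. The list split evenly, with 3 genes higher and 3 lower, 19.4% of those measured against 5.53% of all genes called in either direction, and its median log2 fold change was 0.00023. Ccnd2, which encodes the cell cycle regulator cyclin D2, was higher by 0.79 ± 0.059 SE (adjusted p = 0.00171). The thrombospondin gene Thbs1 was higher by 0.51 and the growth regulator Mycn by 0.46. Pbx3, a homeodomain cofactor of Hox proteins, was lower by a log2 fold change of −0.46 ± 0.061 SE (adjusted p = 0.00793 in limma). These 4 were called with any array left out. The let-7 blockers Lin28a and Lin28b, at −0.26 and −0.24, were each called in 1 of the 6 fits with an array left out, the one without knockdown array 3. The count of lower genes was 4 in that fit and 1 in each of the other 5.

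Genes with an AT-rich interaction domain were measured for all 15 listed, Arid3a and Arid3b among them. Arid3a and Jarid2, a partner of Polycomb repressive complex 2, rose, and the other 13 genes were not called. The 2 calls were 13.3% of the family, against 5.53% of all genes called in either direction. That share counts Arid3a itself. Without Arid3a and Arid3b, 1 of 13 genes was called, Jarid2. Jarid2 rose by 0.20 ± 0.045 SE (limma adjusted p = 0.0439), and was called in 0 of 6 fits with an array left out, so the family count was then 1. Arid3c, the third member of the ARID3 group, was at −0.17 ± 0.084 SE (adjusted p = 0.342), with levels of 5.97 in control and 5.80 in knockdown cells. The family median was 0.04.

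Around Nras, the Ras GTPases and the cascade from Ras to ERK were measured for 21 of 26 listed genes. Nf1, which encodes the Ras-inactivating protein neurofibromin, rose by 0.45 ± 0.062 SE (limma adjusted p = 0.00963). It was the only gene of that list called, 4.76% against 5.53% of all genes, and reached an adjusted p of 0.0589 without control array 1. Without knockdown array 3 2 lower genes were called besides, the exchange factor gene Sos2 and the farnesyltransferase gene Fnta, named after their values were seen. The Ras relatives Rras, Mras and Rras2 had log2 fold changes of 0.15, 0.16 and 0.01 and were not called.

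Nr6a1 was set beside the nuclear receptors of stem cells, of which 16 of 17 had a value and 3 were called, 18.8% against 5.53% of all genes. That share counts Nr6a1 itself, and of the 15 other receptors 1 was called higher and 1 lower. Besides Nr6a1, the retinoic acid receptor gene Rarg was lower, at −0.25 (limma adjusted p = 0.0207), and Nr5a2, an activator of Pou5f1, was higher by 0.20 (adjusted p = 0.0452). Those 2 calls are thin, since with an array left out Rarg was called in 1 of 6 fits and Nr5a2 in 0. Genes reported as repressed by Nr6a1 numbered 7, all measured, and 1 was called, 14.3% against 5.53% of all genes. This was the growth factor gene Fgf4, higher by 0.31 ± 0.057 SE (adjusted p = 0.0231) and called in 2 of 6 fits with an array left out. Pou5f1, Nanog and Sox2, the core pluripotency regulators, were at 0.05, 0.15 and 0.14, Dppa3 at 0.32 (adjusted p = 0.116), and the oocyte genes Gdf9 and Bmp15 at 0.14 and −0.06, all without a call in limma. The median of the 7 was 0.14, against 0.0048 for all genes. Gdf9 and Bmp15 had control levels of 5.54 and 4.33, below the array medians of 6.26 to 6.31. Whether the fall of Nr6a1 bears on these 7 genes was not tested.

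The paralogs of Hic2, Plagl2 and Onecut2 held 0 calls of 8 in limma with those 3 genes included. Plagl2 and Plag1, 2 of the 8, had an unadjusted p under 0.05, where 19.0% of all genes did. Plag1, the nearest relative of Plagl2, was at 0.33 ± 0.097 SE (limma adjusted p = 0.112). Its groups did not overlap, and 14.7% of all genes were likewise higher without overlap. Plagl1 was at 0.10, Hic1 at −0.12, Onecut1 at −0.03 and Onecut3 at −0.09.

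**Figure D3:**
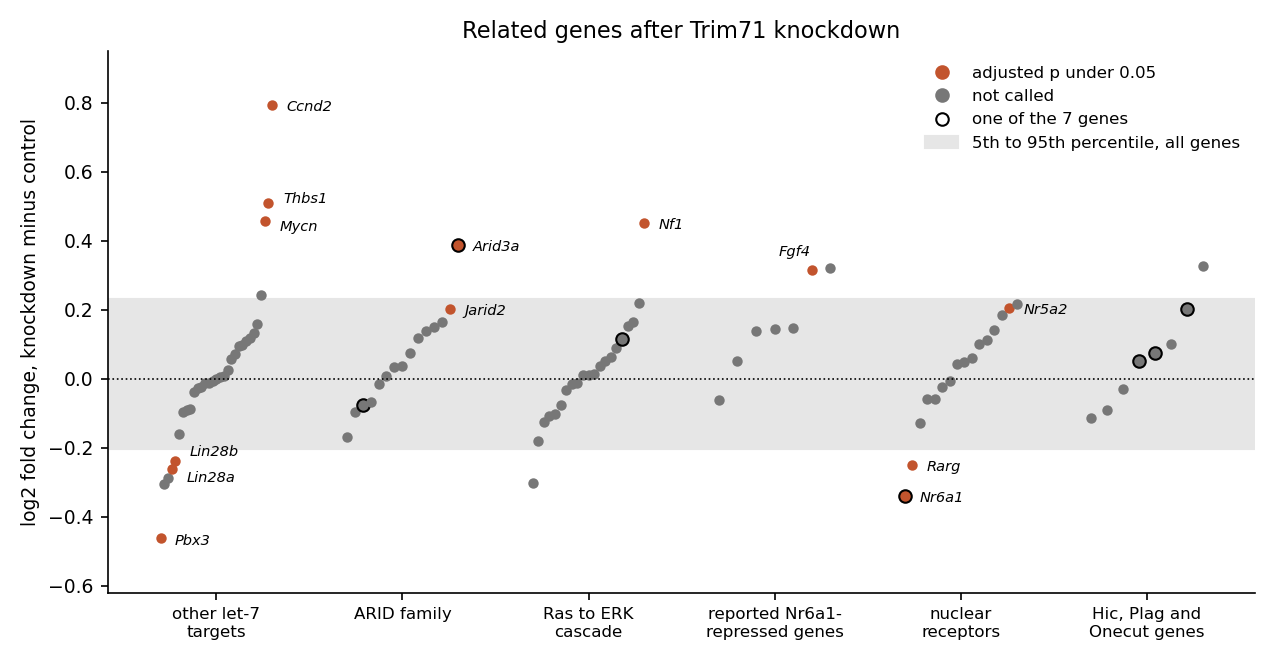
Each point is 1 gene, placed by its log2 fold change (vertical axis, knockdown minus control) within 6 gene lists (horizontal axis, genes in rank order within each list). Called genes are orange and named, the 7 let-7 targets described here have a black rim, and the grey band holds the 5th to 95th percentile of all genes, from −0.20 to 0.23. Arid3a lies above the band and Nr6a1 below it.

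The genes most like the 2 called ones over the 6 arrays were found by the root mean square difference between log2 profiles, each centred on its own mean, among 16897 genes. For Arid3a they were Yeats2 at a difference of 0.022, Gata2 at 0.025 and Dixdc1 at 0.027, with log2 fold changes of 0.35, 0.38 and 0.35. Yeats2 encodes a reader of acetylated histones and Gata2 a transcription factor of trophoblast and blood cells. For Nr6a1 they were Tagln at 0.024, Wdr47 at 0.027 and Rab26 at 0.029, with log2 fold changes of −0.34, −0.32 and −0.29. Tagln encodes an actin-binding protein of smooth muscle and Rab26 a small GTPase of vesicle transport. These likenesses use the arrays of the fit itself and are descriptions.

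**Figure D4:**
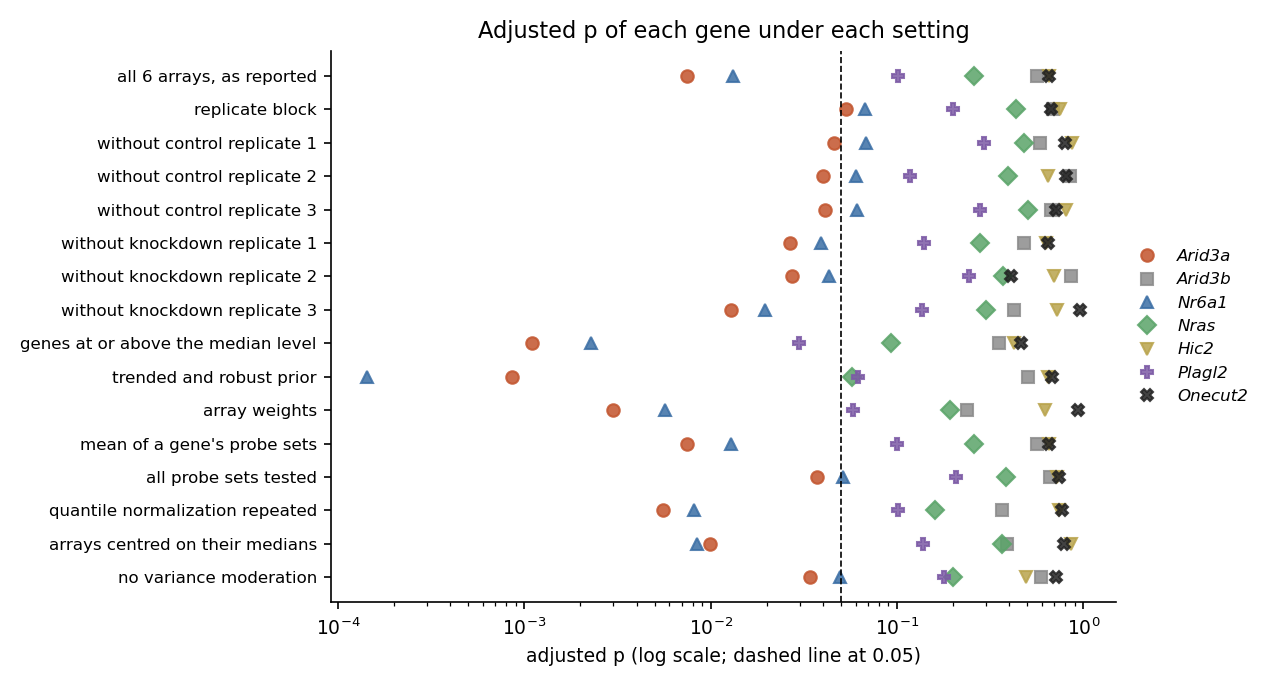
The adjusted p of each of the 7 genes (horizontal axis, log scale, dashed line at 0.05) is plotted for the fit to all 6 arrays and for 15 alternative settings (vertical axis). Arid3a lies left of the line in 14 of the 15 and Nr6a1 in 10, and of the other 5 genes Plagl2 crosses it when only genes at or above the median level were tested, at 0.0296.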

How the data were processed

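The authors deposited log2 expression values per probe set and array. RMA and the affy package were used, per the submitters' processing notes, with version and genome build not given in the sources used here. The method corrects background, quantile normalizes arrays and summarizes probes, so a change shared by most genes would not be seen, and values carry no detection call. The number of arrays limits the precision. Names came from GEO's platform annotation: 21640 of 34760 probe sets had 1 gene symbol, 1321 several and 11799 none here. For genes with several probe sets the brightest over all 6 arrays was used, without an intensity filter.

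A linear model with group as its term was fitted across all 19937 genes (limma 3.58.1, R 4.3.3, lmFit and eBayes), with Benjamini-Hochberg adjustment, and was tested on simulated data. Exact permutation tests used scipy 1.17.1, and plots matplotlib 3.10.9. Named genes are the 8 listed, Trim71, called genes and paralogs of the lists, and the 3 most alike profiles per called gene. The search for alike profiles left out, by symbol, predicted, uncharacterised, pseudogene, small RNA, olfactory and vomeronasal genes. It also left out symbols that begin with Rn, protein-coding genes among them. Other named genes were chosen after their values were seen. The members and lists were chosen with earlier results of these data known.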

Additional observations from a re-analysis of the deposited data

How the results depend on the processing

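All 7 log2 fold changes kept their sign under each of 15 alternatives, and 98 of 105 pairs of gene and alternative kept their side of the threshold. With the replicate number as a block, the log2 fold changes stayed at 0.39 for Arid3a and −0.34 for Nr6a1, and 0 of the 7 genes were called higher and 0 lower (adjusted p = 0.0533 and 0.0672 in limma, with 3 of the 7 at an unadjusted p under 0.05). Same-numbered arrays did not deviate together, with correlations of −0.02, −0.13 and −0.23. Differently numbered arrays were not compared, so these values do not settle whether the numbers pair the arrays. Under the block the ARID family had 0 calls and the let-7 target list 1 lower. With an array left out, Nr6a1 ranged from −0.36 to −0.31, the count of lower genes among the 7 from 0 to 1, of lower let-7 list genes from 1 to 4, while ARID calls were 1 each time, and of Ras list calls from 0 to 1 higher and 0 to 2 lower. With all probe sets tested, Nr6a1 at −0.34 lost its call (0 lower), and the let-7 list had 1 lower and the ARID family 1 higher. Among genes at or above the median level Plagl2 at 0.20 was called too (2 higher), with 4 ARID calls and 4 higher and 1 lower Ras list gene. In that fit 1124 of 9969 genes were called higher and 766 lower, against 675 and 428 of 19937 as reported. The trended and robust prior gave 6 higher let-7 list genes, 4 ARID calls and 4 higher and 1 lower Ras list genes. It called 1213 of all genes higher and 854 lower. Array weights gave 5 higher and 5 lower let-7 list genes and 2 and 2 Ras list genes, with 1114 and 1058 of all genes called. Without variance moderation the let-7 list had 1 lower and the Ras list 0 higher, centring on medians left 1 ARID call, and repeated quantile normalization gave 1 lower Ras list gene. The causes were not tested. Over all genes, calls ran from 148 to 1213 higher and from 101 to 1058 lower. The values carry no detection call, so how signal over background limits them was not tested.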

Other observations

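Probe sets named for let-7 and miR-98 loci were looked at after the values above were seen. They measure transcripts from these loci, not the mature microRNAs. Of 10 such loci 0 were called in limma, and 0 had an unadjusted p under 0.05, against 5.53% and 19.0% of all genes. With 10 loci, these counts are too few to read against those shares. Mirlet7e had the highest log2 fold change, 0.18 ± 0.081 SE, and Mirlet7a-1 the lowest, −0.09 ± 0.063 SE, with adjusted p-values of 0.276 and 0.494. Mirlet7d, with a control level of 7.35, was at −0.08 ± 0.064 SE. Mirlet7c-1 had the lowest control level, 3.17. All of the 10 but Mirlet7d, Mirlet7e and Mirlet7i read below the array medians of 6.26 to 6.31.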
